A study of Mus musculus with 4 samples.

Results

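The miRNAs described here are those best known from muscle, liver, red blood cells and white blood cells, followed in small RNA from exosome-enriched preparations of a mouse astrocyte line. They were chosen by hairpin name, taking any arm of miR-1a, miR-133a, miR-133b and miR-206 for muscle, miR-122 for liver, miR-144, miR-451a, miR-486a and miR-486b for the erythroid lineage, and miR-142a, miR-150 and miR-223 for leukocytes. Of the 389 mature miRNAs listed, 12 met this rule: 2 muscle, 1 liver, 6 erythroid and 3 leukocyte miRNAs. They came from 9 of the 12 hairpins, since miR-133a, miR-133b and miR-150 matched no row and are not described.

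The C8-D1A line of wild-type mouse astrocytes was grown by the authors in medium with fetal bovine serum. Exosome-enriched preparations were collected from the culture supernatant of 2 control cultures and 2 heat stress cultures, which the submitters call biological replicates. Control cells were kept at 37 °C for 8 h by the sample labels, although the culture methods give a shorter time, and heat stress cells were held at 42 °C for 2 h and rewarmed at 37 °C for 6 h. Whether the serum had been depleted of its own vesicles is not given in the sources used here. Each miRNA has 1 normalized value per library, and within a library all values were whole multiples of 1 step (100% within a tolerance of 0.001). That a step is 1 read met the criteria set for it in only 2 of the 4 libraries: control library 2 had 96 values of up to 20 steps, under the 100 required, and in heat stress library 2 the step was 1.00, where rounding alone could give whole multiples. All read numbers below are therefore conditional on a step being 1 read. On that condition, control libraries 1 and 2 held 43675 and 95020 miRNA reads and heat stress libraries 1 and 2 held 100933 and 63338. A listed 0 then leaves room for as many as 3 reads, or normalized values of 4.06, 2.35, 2.37 and 3.00 in these libraries. Where 2 values are given for a group, they are those of libraries 1 and 2 in that order. Reads were not independent molecules, so these limits and the intervals given below cover counting error only.

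Many miRNAs are made in most cells, but a few are so strongly tied to a single tissue that their presence in a body fluid is read as a trace of that tissue. MiR-1 and miR-206 are switched on by the myogenic transcription factors, miR-122 is the dominant miRNA of hepatocytes, miR-144 and miR-451a are cut from a shared transcript driven by GATA1 in maturing red cells, and miR-142 and miR-223 mark blood-forming cells and myeloid cells. Serum and plasma carry all of these lineages' miRNAs, in vesicles and in protein complexes.

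The levels of the 12 miRNAs fell into a high, a middle and a near-zero tier. Only miR-486a-5p and miR-486b-5p were abundant, with rank 20 by mean value among the 389 miRNAs. MiR-122-5p, miR-1a-3p, miR-206-3p, miR-451a and miR-142a-5p had mean values between 22.3 and 55.3 and ranks between 77 and 111. For miR-1a-3p this mean joins unlike groups: its rank was 114 and 72 in control and 198 and 271 after heat stress, where it was near 0. The other 5 members stayed under 10 in every library. For scale, the most abundant miRNA, miR-148a-3p, stood at 11928 and 23176 in control and 23825 and 15961 after heat stress, and let-7c-5p, miR-10b-5p, miR-365-2-5p and miR-10a-5p followed it.

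**Figure D1:**
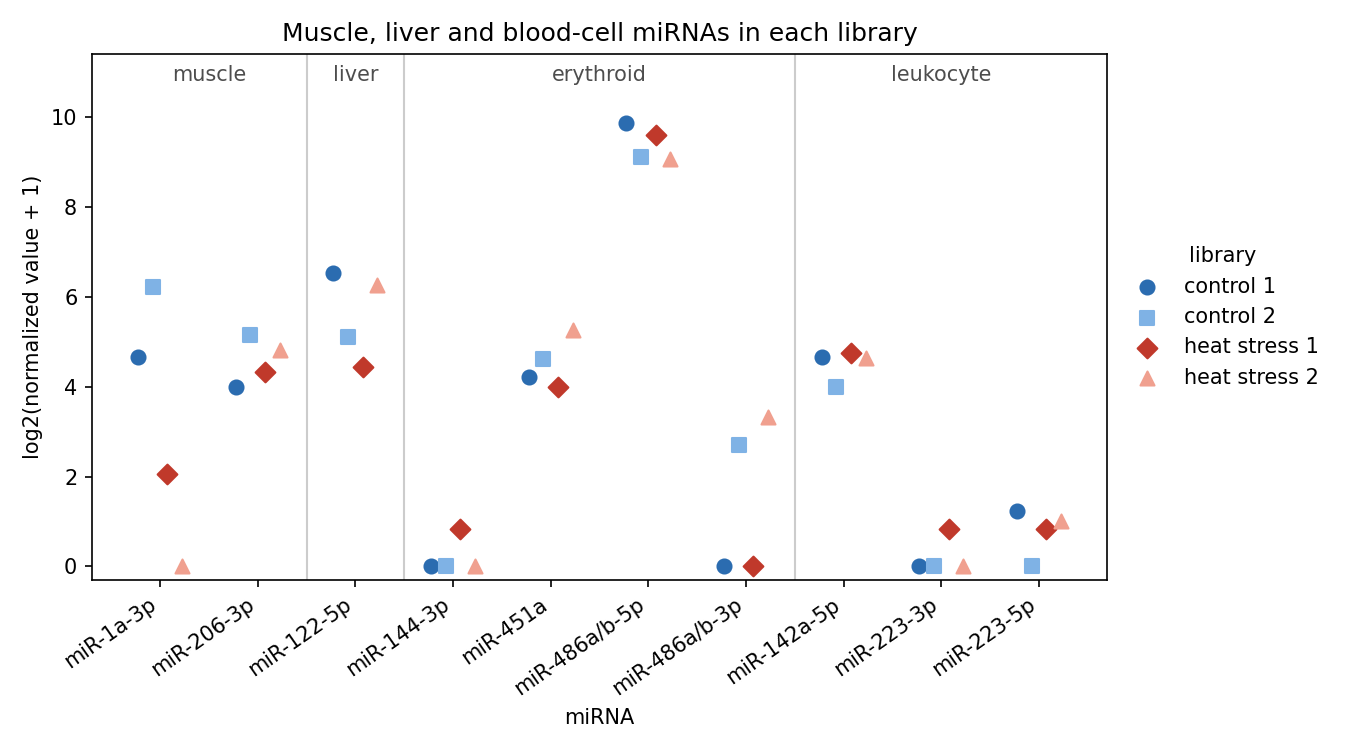
Normalized value of each member in each library, as log2(value + 1) on the vertical axis, with members grouped by lineage and the identical miR-486a and miR-486b rows drawn once. Each point is 1 library. Among the members with a mean value of at least 1, only miR-1a-3p has both heat stress libraries (3.16 and 0) below both control libraries (24.4 and 73.5). The same order holds for 11.5% of all 313 miRNAs tested.

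MiR-1a-3p, the miRNA of heart and skeletal muscle, stood at 24.4 and 73.5 in control libraries 1 and 2, against 3.16 and 0 in heat stress libraries 1 and 2, or 18, 94, 4 and 0 reads if a step is 1 read. Both heat stress libraries lay below both control libraries, and the control libraries themselves differed by 3.02-fold. With reads summed over each group and divided by the summed inverse steps of its libraries (0.738 and 1.28 in control, 1.27 and 0.999 after heat stress), the control group was 31.4-fold higher (95% exact interval 11.9 to 117, counting error only). This ratio was 41.6-fold without control library 1, 13.8-fold without control library 2 and 17.6-fold without heat stress library 2. Without heat stress library 1 the remaining library was at 0, and the control mean was at least 16.3-fold higher than 3 reads there. In such bulk preparations, fewer contributing cells or vesicles and less of the miRNA in each cannot be told apart.

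On the log2(value + 1) scale, which shrinks ratios of low values, the change of miR-1a-3p was -4.41 (standard error 1.17, 95% interval -7.42 to -1.41, n = 2 per group, limma adjusted p = 0.513). It passed the study's threshold (a change beyond 2-fold, unadjusted p below 0.05), but not the adjustment over all miRNAs tested. Of the 9 members with a mean value of at least 1, it was the 1 past this threshold, in a comparison where 7.35% of the 313 miRNAs tested passed in either direction and 2.88% passed as lower. Both heat stress libraries lay below both control libraries in 11.5% of the miRNAs tested, and among the members in miR-1a-3p alone. No miRNA of the 313 had an adjusted p under 0.05 in limma, and 23 had an unadjusted p under 0.05. Leaving out any 1 of the 4 libraries leaves 1 library in a group, too few to judge the threshold. The log2 change of miR-1a-3p then ran from -5.44 to -3.39. MiR-1a-3p was no longer past the threshold when 0.1 was added in place of 1. With 0.1 added, its log2 change was -6.22 with a standard error of 2.16.

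MiR-206-3p, which is restricted to skeletal muscle and belongs to the same seed family as miR-1, did not share this pattern. It stood at 14.9 and 34.4 in control and 19.0 and 27.0 after heat stress, so the heat stress values lay inside the control range. Its log2 change was -0.005 (standard error 0.921, limma adjusted p = 0.997), with a 95% interval from -2.38 to 2.37 that leaves room for changes of several-fold either way. The level of miR-1a-3p relative to miR-206-3p was 1.64 and 2.14 in the control libraries and 0.167 and 0 in the heat stress libraries. The log2 difference between these miRNAs had a heat stress mean minus control mean of -4.41 (exact two-sided permutation p = 0.333, the smallest that 2 libraries against 2 allow).

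The share of each library's total value taken by both muscle miRNAs was 0.0664% and 0.145% in the control libraries and 0.0277% and 0.0426% in the heat stress libraries. Both heat stress shares were below both control shares, with a difference in means of -0.0706 percentage points (exact two-sided permutation p = 0.333). The counting intervals of control library 1 (95% exact interval 0.0445 to 0.0953) and heat stress library 2 (0.0281 to 0.0620) overlapped, so these libraries were not separated beyond counting error. The difference in means was -0.0312 without control library 2 and -0.110 without control library 1. MiR-1a-3p made up 62.1% and 68.1% of that muscle sum in the control libraries and 14.3% and 0% in the heat stress libraries. The further muscle miRNAs miR-1b, miR-208a, miR-208b and miR-499, of which all but the first lie in myosin genes, matched no row.

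The 3 miRNAs whose values over the 4 libraries lay nearest to those of miR-1a-3p were miR-706, miR-3077-5p and miR-877-3p, at root-mean-square differences of 1.45, 1.45 and 1.52 in log2(value + 1). MiR-3077-5p stood at 21.7 and 17.2 in control and at 0 in both heat stress libraries. These distances were larger than those of the nearest miRNAs in each of the other lineages below. By the GENCODE M21 annotation of GRCm38, the hairpin Mir1a-1 lies on chromosome 2 at 180389048-180389124 on the plus strand outside any other annotated gene. The other copy Mir1a-2 lies on chromosome 18 at 10785481-10785552 on the minus strand in an intron of the Mir133a-1 host gene, antisense to an intron of Mib1 and to Mir1b. The table gives 1 value for both copies.

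MiR-122-5p, which supports cholesterol and lipid metabolism in hepatocytes, stood at 90.8 and 33.6 in control libraries 1 and 2, against 20.5 and 76.1 in heat stress libraries 1 and 2. The spread within each group, 2.70-fold in control and 3.70-fold after heat stress, was wider than the difference between them. Its log2 change was -0.47 (standard error 1.11, limma adjusted p = 0.971). The direction turned without control library 1 (0.23) and without heat stress library 1 (0.45). The values ran in the reverse order of depth, highest in the library with 43675 reads and lowest in the library with 100933, and the part of depth in this order was not tested.

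As a share of the library, miR-122-5p took 0.153% (95% exact interval 0.119 to 0.195) and 0.0453% (0.0328 to 0.0610) in the control libraries. In the heat stress libraries it took 0.0258% (0.0168 to 0.0377) and 0.120% (0.0946 to 0.1502). The libraries fell into a higher and a lower pair whose counting intervals did not meet, with 1 control and 1 heat stress library in each pair. The difference between groups was -0.0265 percentage points (exact two-sided permutation p = 0.667).

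MiR-22-3p, miR-193a-5p and miR-30a-5p had the nearest values to miR-122-5p, at root-mean-square differences of 0.44, 0.62 and 0.73 in log2(value + 1). MiR-22-3p was at 56.9, 25.8, 25.3 and 59.1 in the same order of libraries, again high in control library 1 and heat stress library 2. The further liver miRNAs, miR-192 and miR-194, which the intestine and kidney also make, were listed in 3 rows, of which 1 was above 0 in all 4 libraries. The most abundant, miR-192-5p, stood at 16.3 and 24.3 in control and 9.48 and 25.0 after heat stress. None of these 3 passed the threshold, beside 7.35% of all miRNAs tested, and their median log2 change was -0.34, beside 0.12 over all miRNAs tested. The hairpin Mir122 lies on chromosome 18 at 65248861-65248926 on the plus strand, inside an exon of a long noncoding RNA.

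The erythroid miRNAs were led by miR-486a-5p, which is also abundant in muscle. It stood at 933 and 553 in control and 777 and 531 after heat stress. The groups overlapped, and the log2 change was -0.16 (standard error 0.881, limma adjusted p = 0.983). Its direction turned without control library 1 (0.22) and without heat stress library 2 (0.11). MiR-486b-5p had the same value as miR-486a-5p in every library, and miR-486b-3p the same as miR-486a-3p, so each pair carries 1 measurement. The hairpin Mir486 lies on chromosome 8 at 23142555-23142682 on the plus strand, in an intron of Ank1, the gene of an erythrocyte membrane ankyrin. Mir3107, which RefSeq also lists as mir-486b, lies inside the same span at 23142573-23142662 on the minus strand.

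The 3p arm, miR-486a-3p, stood at 0 and 5.48 in control and 0 and 9.01 after heat stress. It was therefore seen in 1 library of each group, at 7 and 9 reads if a step is 1 read. Closest in level to miR-486a-5p were miR-328-3p, miR-151-3p and miR-423-3p, at root-mean-square differences of 0.35, 0.38 and 0.46 in log2(value + 1).

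MiR-451a, the miRNA that builds up most in maturing red cells, stood at 17.6 and 23.5 in control and 15.0 and 37.0 after heat stress. The highest and the lowest value both belonged to heat stress libraries. The log2 change was 0.21 (standard error 0.928, limma adjusted p = 0.983), and it was -0.41 without heat stress library 2. MiR-144-3p, cut from the same transcript, was listed at 0 in 3 libraries and at 0.790 in heat stress library 1, which is 1 read.

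MiR-451a was far below miR-486a-5p. The value of miR-486a-5p was 53.0 and 23.6 times that of miR-451a in the control libraries and 51.7 and 14.4 times in the heat stress libraries. In blood plasma, miR-451a is set against miR-23a-3p, which red cells hold little of, to look for red cell lysis. MiR-23a-3p stood at 37.9 and 76.7 in control and 32.4 and 117 after heat stress. The ratio of miR-451a to miR-23a-3p was 0.464 and 0.306 in the control libraries and 0.463 and 0.316 in the heat stress libraries. It was below 1 in all 4 libraries, and the groups overlapped. Whether this plasma ratio reads the same way in preparations from cultured cells was not tested.

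With both miR-486 hairpins summed as listed, the 6 erythroid miRNAs took 3.18% and 1.53% of the control libraries and 1.97% and 1.76% of the heat stress libraries. Counting each identical pair once gave 1.63% (95% exact interval 1.52 to 1.76) and 0.789% (0.733 to 0.847) in the control libraries. The heat stress libraries then held 1.00% (0.943 to 1.07) and 0.919% (0.846 to 0.997). Control library 1 stood above the other 3 libraries, and both heat stress libraries lay between the control libraries. The difference between groups was -0.25 percentage points with pairs counted once and -0.49 with both summed (exact two-sided permutation p = 1.00 for each). The summed difference was 0.33 without control library 1 and -1.32 without control library 2. MiR-486a-5p alone made up between 92.0% and 98.1% of the erythroid value in each library with pairs counted once.

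The further red cell miRNAs, which are abundant in blood but made by many cells, gave 7 rows from miR-16, miR-92a, miR-25, miR-93 and miR-106b. Together they took 0.666% and 0.655% of the control libraries and 0.981% and 0.954% of the heat stress libraries. Both heat stress shares were above both control shares. The most abundant, miR-25-3p, stood at 148 and 266 in control and 364 and 293 after heat stress. Of these 7, 1 was past the threshold as higher after heat stress, beside 4.47% of the 313 miRNAs tested, and the median log2 change was 0.72, beside 0.12 over all. The change was negative for miR-25-5p (-1.16) and miR-93-5p (-1.17), neither past the threshold. In control these miRNAs stood at 54.2 and 4.06 in library 1, and both were listed at 0 in library 2. The value of 4.06 is the limit given above for a listed 0 in control library 1. After heat stress miR-93-5p was listed at 0 in both libraries, and miR-25-5p was above 0 in library 2 only. Each of these changes thus rests on 1 control library and gives no firm direction. The 1 past the threshold was miR-16-5p, a member of a family that restrains the cell cycle. It was listed at 0 in each control library and at 19.0 and 8.01 after heat stress. MiR-16-5p and miR-451a, both plentiful in red cells, thus had unlike values over the 4 libraries, and their difference was not tested.

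Leukocyte miRNAs were the scarcest of the 4 lineages in every library but heat stress library 1, where the muscle and liver shares were lower. Except in control library 2, the counting intervals of the leukocyte and muscle shares overlapped, so their order was not separated beyond counting error. In heat stress library 1 the leukocyte and liver intervals overlapped too. MiR-142a-5p, made across the blood-forming lineages, stood at 24.4 and 14.9 in control and 26.1 and 24.0 after heat stress. Control library 1 lay between the heat stress libraries, and control library 2 was the lowest. The log2 change was 0.38 (standard error 0.858, limma adjusted p = 0.971), and it was 0.04 without control library 2 and 0.71 without control library 1. MiR-223-3p, the main product of the myeloid hairpin Mir223, was listed at 0 in 3 libraries and at 0.790 in heat stress library 1. MiR-223-5p stood at 1.35 and 0 in control and 0.790 and 1.00 after heat stress, which is 1 read or none in each.

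Together the 3 leukocyte miRNAs took 0.0435% and 0.0200% of the control libraries and 0.0347% and 0.0395% of the heat stress libraries. The groups overlapped, with a difference of 0.00532 percentage points (exact two-sided permutation p = 1.00). This difference was -0.00643 without control library 2 and 0.0171 without control library 1. MiR-142a-5p made up at least 94.3% of that sum in every library. The nearest miRNAs in level were miR-30a-3p, miR-351-5p and miR-103-3p, at root-mean-square differences of 0.43, 0.45 and 0.45 in log2(value + 1). Of the further leukocyte miRNAs, miR-142b matched no row, and miR-146a, miR-155 and miR-342 gave 3 rows, of which 2 were tested and 0 passed the threshold, beside 7.35% of all miRNAs tested. Their most abundant member, miR-155-5p, stood at 19.0 and 6.26 in control and 5.53 and 9.01 after heat stress.

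**Figure D2:**
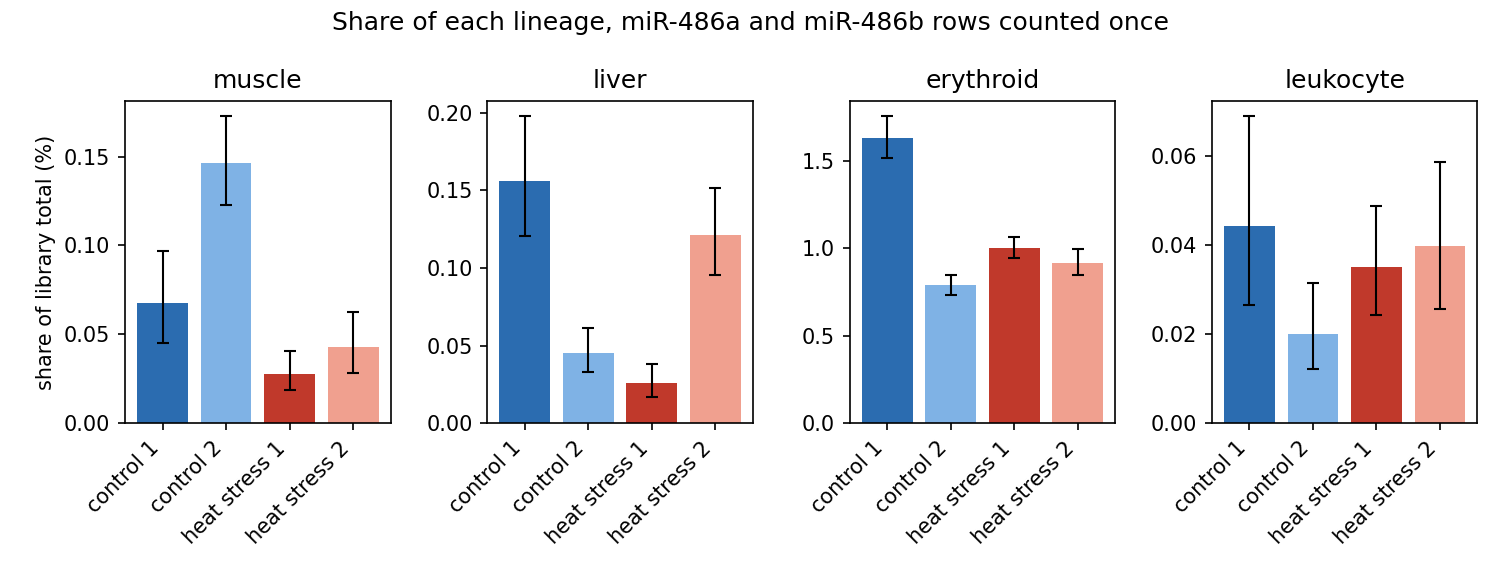
Share of each library's total value (vertical axis, percent, each panel from 0 on its own scale) taken by the members of each lineage, with the identical miR-486a and miR-486b rows counted once in the share and in the total. Bars are single libraries and error bars are 95% exact binomial intervals for counting error, if a step is 1 read. The muscle share is lower in both heat stress libraries than in both control libraries, while the other lineages overlap. The muscle error bars of control library 1 (0.0452 to 0.0969) and heat stress library 2 (0.0283 to 0.0625) overlap. The exact two-sided permutation p for muscle is 0.333, the smallest that 2 libraries against 2 allow.

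Mature sequences were found by name in RefSeq (GRCm38.p6) for 6 of the 12 members, which do not include miR-1a-3p, miR-122-5p or the miR-486 members. They are shown for a muscle, an erythroid and a leukocyte member, with the seed, bases 2 to 8, in capitals, because the seed decides most of a miRNA's targets.
mmu-miR-206-3p: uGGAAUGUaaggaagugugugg
mmu-miR-451a: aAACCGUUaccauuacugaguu
mmu-miR-142a-5p: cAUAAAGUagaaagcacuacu
No seed was shared among the 6 members with a sequence, nor with any other of the 325 listed miRNAs that had one. MiR-1a-3p, of the same seed family as miR-206-3p, had no sequence here and so was not part of this comparison. MiR-206-3p lies on chromosome 1 at 20679055-20679076 on the plus strand, and its hairpin partly overlaps an exon of a long noncoding RNA. MiR-142a-5p lies on chromosome 11 at 87756867-87756887 on the plus strand, in an intron of the Mir142 host gene and opposite Mir142b.

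Mir144 and Mir451a are neighbours on the plus strand of chromosome 11, at 78073005-78073070 and 78073170-78073241, with 99 bases between them, and Mir451b lies opposite Mir451a. Their hairpins are shown because their mature products differed in level, with the mature miR-144-3p and miR-451a in capitals.
Mir144: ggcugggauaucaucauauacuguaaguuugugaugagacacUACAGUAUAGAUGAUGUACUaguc
Mir451a: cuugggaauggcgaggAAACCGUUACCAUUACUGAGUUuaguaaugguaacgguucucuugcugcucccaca
In Mir144 the mature strand lies at bases 43 to 62 of 66, near the end of 1 arm. In Mir451a it spans bases 17 to 38 of 72 and runs across the middle of the hairpin. Mir451a is known to be processed by Argonaute 2 instead of Dicer, which is the enzyme that frees most miRNAs. MiR-451a held 99 reads over the 4 libraries and miR-144-3p held 1.

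Markers of the labelled cells were measured beside these lineages. The astrocyte list, of miRNAs enriched in cultured astrocytes over neurons but not specific to them, took 5.68% and 3.68% of the control libraries and 5.26% and 7.28% of the heat stress libraries. This was more than the erythroid share in every library. Its most abundant member, miR-125b-5p, stood at 2134 and 1612 in control and 2402 and 3254 after heat stress, and miR-29c matched no row. MiR-26a-5p and miR-125b-1-3p followed at mean values of 1119 and 195. The other rows were far lower, with means of 33.6 for miR-29a-3p, 12.8 for miR-23b-3p and 11.1 for miR-26b-5p. MiR-29b-1-5p and miR-23b-5p, at means of 4.06 and 1.00, were each above 0 in a single library. None of the 8 rows of this list passed the threshold, beside 7.35% of all miRNAs tested. Their median log2 change was 0.40, beside 0.12 over all.

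The neural list took between 0.696% and 1.22% of each library, led by miR-128-3p at 531 and 540 in the control libraries and 465 and 382 in the heat stress libraries. The next most abundant, miR-9-5p, stood at 122 and 0 in control and 138 and 48.0 after heat stress, and overlapped between groups. MiR-124-3p, the defining miRNA of neurons, stood at 4.06 and 0 in control and 0 and 3.00 after heat stress, and miR-132 matched no row. The mesenchymal list took between 0.913% and 0.958% of each library, led by miR-143-3p at 321 and 310 in the control libraries and 354 and 279 in the heat stress libraries. Of the 7 neural rows 5 were tested, as were all 7 mesenchymal rows, and none of those tested passed the threshold, beside 7.35% of all miRNAs tested. The median log2 change was -0.22 for the neural list and -0.004 for the mesenchymal list, beside 0.12 over all. At that share of calls, a count of 0 in lists this short says nothing particular about them.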

How the data were processed

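Small RNA from exosome-enriched preparations of C8-D1A cells was sequenced by the authors, 2 libraries per group. Adapters and reads that were short or of low quality had been removed. Their methods name Bowtie for comparison with the genome, and the submitters' processing notes name FastQC and BWA. The genome build and the miRBase release are not given in the sources used here. The deposited values are a normalized signal per mature miRNA, and no count model was used. The authors' comparison columns hold a log2 fold change and a p-value per miRNA and were not used, nor was their table of miRNAs called different.

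Differences in log2(value + 1) were tested by limma (version 3.58.1, R version 4.3.3) for 313 miRNAs whose mean reached 1. Condition was the sole covariate, and p-values were adjusted by Benjamini-Hochberg across all 313. The study's threshold (a change beyond 2-fold, unadjusted p below 0.05) was applied. Fits were tested on simulated data. Shares were compared by exact two-sided permutation of libraries, and intervals are Clopper-Pearson at 95%. Named miRNAs were all members, the 3 nearest miRNAs to the most abundant member of each lineage, the 5 largest means, miR-23a-3p, and from each reference list the most abundant, those past the threshold and those unlisted. MiR-124-3p, miR-9-5p, miR-25-5p, miR-93-5p and the astrocyte rows after miR-125b-5p fall outside this rule, being named once their values had been seen. Members and lists were chosen with earlier results of these data known. Sequences are from RefSeq (GRCm38.p6). Figures were drawn with matplotlib (version 3.10.9).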

Additional observations from a re-analysis of the deposited data

How the results depend on the processing

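MiR-1a-3p was lower after heat stress under every alternative tried. With 0.1 added in place of 1, its change was -6.22 and 0 members passed the threshold, with 14 miRNAs higher and 2 lower overall. A minimum mean of 10 gave 6 higher, and a variance prior that follows the mean also gave 6. Without single libraries, with the lone library assumed to vary like the other group, 0 members passed, overall counts ran from 8 to 45 higher and from 3 to 23 lower, and the change of miR-1a-3p ran from -5.44 to -3.39. The same omissions gave -0.58 to 0.57 for miR-206-3p, -1.39 to 0.45 for miR-122-5p, -0.41 to 0.83 for miR-451a, -0.54 to 0.22 for miR-486a-5p, -1.35 to 1.98 for miR-486a-3p and 0.04 to 0.71 for miR-142a-5p. Share differences, in percentage points, ran from -0.110 to -0.0312 for muscle, -0.0805 to 0.0276 for liver, -1.32 to 0.331 for erythroid and -0.00643 to 0.0171 for leukocyte miRNAs. When the 5 most abundant miRNAs were left out of the total, the muscle difference was -0.155. The other share differences were then -0.0455 for liver, -0.634 for erythroid and 0.0158 for leukocyte miRNAs. Equal library totals moved the median change of all miRNAs tested from 0.12 to 0.02 and turned no member's direction. Relative to the first of these medians, miR-1a-3p changed by -4.54. Causes of these shifts were not tested.

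With the replicate number as a replicate block, 10 miRNAs were higher and 4 lower, and miR-1a-3p was still past the threshold (1 member). Deviations of same-numbered libraries from their group means were not correlated (r = -0.0189 across 313 miRNAs, which are not independent). With 2 libraries per group this is a single contrast, which cannot show whether same-numbered libraries share more than a number. Most members held under 100 reads per library, and how far this limits what can be detected was not tested. With 2 libraries per group a p-value measures only the spread between these cultures.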
